A study of Bos grunniens with 12 samples.

Results

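Genes of the vessel wall and of vascular endothelial growth factor (VEGF) signalling were examined in yak testis at 1.5 and 5 years of age. The set held 8 gene symbols: VEGFA, KDR, FLT1, TEK, ENG, PECAM1, CDH5 and VWF. Their rows were picked by symbol and not by level or change. Of the 8 symbols, 7 were carried by 10 of the 20953 rows of the deposited gene table, because TEK, VEGFA and CDH5 each stood on 2 gene identifiers. FLT1 had no value under its symbol and was not analysed here. With a mean of at least 0.5 FPKM (fragments per kilobase, corrected for transcript length and for library size) over the libraries required for testing, 7 rows of 6 symbols were tested and 3 rows were too low.

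Testes of 3 yaks aged 1.5 years and of 3 yaks aged 5 years (Bos grunniens, all described as healthy, from 1 location, with no treatment) were sequenced by MeRIP-seq. In this method fragments carrying N6-methyladenosine (m6A) are pulled down with an antibody (IP library) and sequenced beside the unselected RNA (input library), giving 12 libraries, and the gene table holds the 6 input libraries. The study asks how the m6A and RNA of the testis differ before and after sexual maturity. The testes of the 1.5-year-old yaks came from castration and those of the 5-year-old yaks from slaughtered animals, so age and the way of collection cannot be told apart. The groups are given here by age, since the stage field of the sample records names the opposite stage for every sample.

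VEGFA is a secreted growth factor that binds the receptor tyrosine kinases KDR (VEGFR2) and FLT1 (VEGFR1) on endothelial cells, the cells that line blood vessels, and drives their division and sprouting. A parallel system of angiopoietin ligands and the receptor TEK (TIE2) keeps vessels quiet or makes them responsive. In the testis the vessels run in the interstitium between the seminiferous tubules, beside the Leydig cells, and endothelial RNA is only a small fraction of the RNA of the organ.

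Some facts of the libraries bear on every value. The 1.5-year-old libraries carried high levels of RNAs that are made in spermatids, the post-meiotic germ cells, although these animals are described as sexually immature. TNP1, a nuclear protein of spermatids, was at 852 to 883 FPKM at 1.5 years and at 201 to 641 FPKM at 5 years. The paper describes no germ cells beyond primary spermatocytes in sections from before maturity. Whether the ages in the sample titles are exchanged was not tested, and each direction below rests on those ages. Replicate 1 of the 5-year-old yaks stood apart. Its correlation across genes of log2 FPKM with the 1.5-year-old libraries was 0.82 to 0.84, against 0.91 to 0.95 for the other 5-year-old libraries. Replicate 2 at 5 years correlated more with the 1.5-year-old libraries (0.942 to 0.947). With replicates 1 and 3 of its own age it had 0.868 and 0.935. Without replicate 2 at 5 years, 2403 genes passed the test below after adjustment, against 4 with all libraries. A log2 fold change that moved by over 1.5 times when replicate 1 at 5 years was left out is given below both ways. In whole tissue, fewer cells of a type and less RNA per cell cannot be told apart.

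None of the 7 tested rows differed between the ages after correction for all 12437 genes tested (limma on log2(FPKM + 0.1), two-sided, Benjamini-Hochberg adjusted p under 0.05). Among all tested genes 0.0322% passed, which is 4 genes, and 25.1% had an unadjusted p under 0.05. Of the 7 rows 1 was under 0.05 before adjustment, ENG, which was higher at 5 years, beside 14.2% of all tested genes in that direction. ENG was also the only row whose 3 values at 5 years all lay above the 3 at 1.5 years, beside 19.8% of all tested genes. The log2 fold change (5 years minus 1.5 years, on the log2(FPKM + 0.1) scale) was above 0 in 6 rows and below 0 in 1, with a median of 0.29. Over all tested genes it was above 0 in 53.5%, with a median of 0.04.

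**Figure D1:**
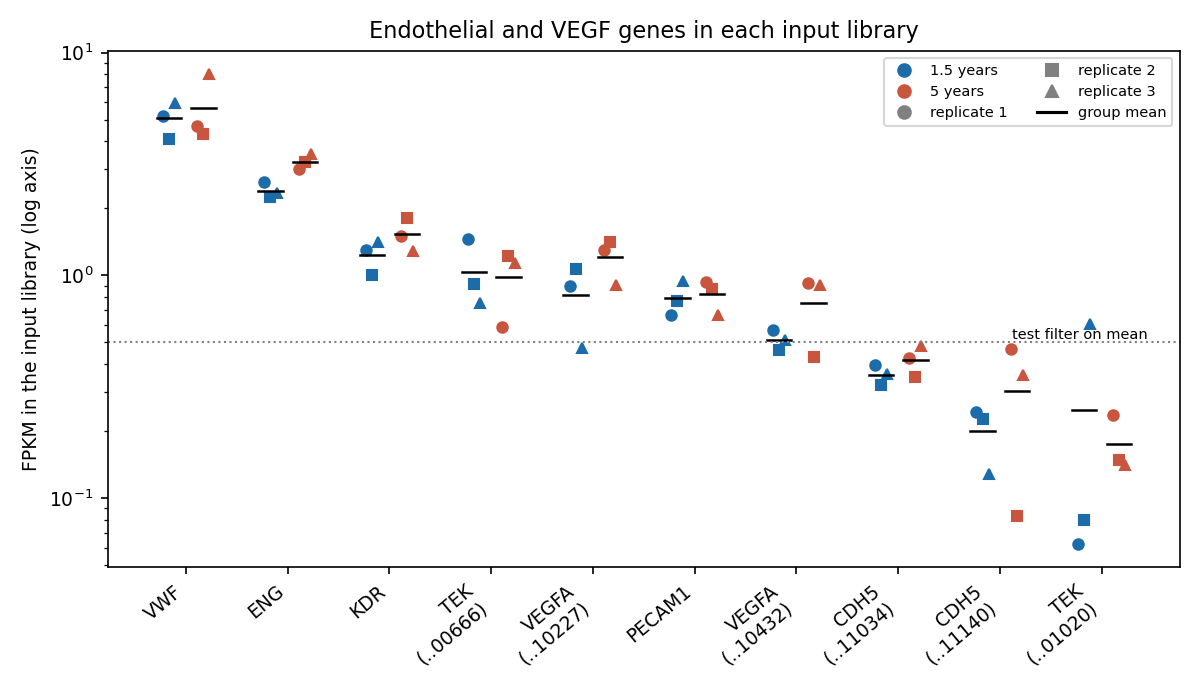
FPKM (log axis) of the 10 rows of the gene set in each input library, ordered by mean, with 1.5-year-old yaks in blue, 5-year-old yaks in red, a marker shape for each replicate number (the numbers do not pair the animals) and black bars for group means. A gene symbol on more than 1 row is followed by the last digits of its identifier. VWF and ENG lie above the other rows in every library, and ENG alone among the tested rows has 5-year values (3.00 to 3.49) that all lie above its 1.5-year values (2.24 to 2.62).

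FPKM is scaled by transcript length, so the genes can be set side by side. By the mean over the 6 libraries VWF had the highest FPKM, followed by ENG, KDR, TEK, VEGFA and PECAM1, and CDH5 was the lowest of the 7 symbols, each taken by its row with the highest level. VWF was above ENG in 6 of 6 libraries and ENG above KDR in 6 of 6, and the ranges of these neighbours over all libraries did not overlap. KDR and TEK, TEK and VEGFA, and VEGFA and PECAM1 overlapped over the 6 libraries, while the PECAM1 range (0.664 to 0.943) lay above that of CDH5 (0.321 to 0.480). KDR was above TEK in 5 of 6 libraries and TEK above VEGFA in 3 of 6, so the places of TEK, VEGFA and PECAM1 in the order were not separated beyond the spread between animals.

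The ligand VEGFA, on ENSBGRG00000010227, whose annotated terms are angiogenesis and the VEGF signalling pathway, had FPKM of 0.894, 1.07 and 0.474 in the 1.5-year-old yaks and of 1.30, 1.42 and 0.905 in the 5-year-old yaks. Replicates 1 and 2 at 5 years lay above every 1.5-year value, but replicate 3 at 5 years lay within the range of the younger animals, so the groups overlapped. The mean FPKM was 0.813 ± 0.307 (SD, n = 3) at 1.5 years and 1.21 ± 0.267 (SD, n = 3) at 5 years. VEGFA had a log2 fold change of 0.56 with a 95% interval of -0.24 to 1.36 (limma, adjusted p = 0.321). Its interval reached past a 2-fold increase.

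A second row under the symbol VEGFA, ENSBGRG00000010432, carries terms for the axoneme, the core of cilia and sperm tails, and the ribosome in place of vascular terms. Its FPKM was 0.568, 0.462 and 0.515 at 1.5 years and 0.923, 0.429 and 0.904 at 5 years. Replicate 2 at 5 years was below all of the younger animals while the other two were above them. For this VEGFA row the log2 fold change was 0.41, with an interval of -0.43 to 1.25 (limma, adjusted p = 0.469). It was 0.25 without replicate 1 at 5 years and 0.72 without replicate 2 at 5 years, where its unadjusted p was under 0.05 (limma, adjusted p = 0.101). It is uncertain whether these reads are of the growth factor.

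KDR (ENSBGRG00000023842), the main signalling receptor for VEGFA on endothelial cells, had FPKM of 1.31, 1.00 and 1.41 at 1.5 years and of 1.50, 1.82 and 1.28 at 5 years. The lowest 5-year value lay below 2 of the 1.5-year values, and the groups overlapped. Mean FPKM of KDR was 1.24 ± 0.209 and 1.53 ± 0.268 (SD, n = 3 each). Its log2 fold change was 0.29, with an interval of -0.25 to 0.82 (limma, adjusted p = 0.431). The ratio of VEGFA to KDR in the same library, a description of ligand beside receptor RNA, was 0.685, 1.07 and 0.337 at 1.5 years and 0.866, 0.778 and 0.705 at 5 years. The 5-year ratios all lay inside the wider range of the 1.5-year ratios.

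ENG (endoglin, ENSBGRG00000007082) is a co-receptor for ligands of the transforming growth factor beta family, used on endothelial cells together with ACVRL1. Its FPKM was 2.62, 2.24 and 2.34 in the 1.5-year-old yaks and 3.00, 3.22 and 3.49 in the 5-year-old yaks. All the older animals were above all the younger ones, with means of 2.40 ± 0.196 and 3.24 ± 0.246 (SD, n = 3 each). ENG had a log2 fold change of 0.42 with a standard error of 0.15 and an interval of 0.05 to 0.78 (limma, adjusted p = 0.171). It therefore did not pass the test after correction. Without replicate 1 of the 5-year-old yaks the value was 0.47. The unadjusted p of ENG was no longer under 0.05 when replicate 3 at 5 years, replicate 2 at 1.5 years or replicate 3 at 1.5 years was left out (log2 fold changes of 0.36, 0.37 and 0.40), nor under quantile normalization (0.33) or with the replicate number as a block (0.42). With a library left out its adjusted p lay between 0.124 and 0.390.

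ACVRL1 (ALK1, ENSBGRG00000000336), the receptor kinase that ENG assists, had FPKM of 1.02, 0.985 and 1.49 at 1.5 years and of 2.68, 1.72 and 1.78 at 5 years, also without overlap. The log2 fold change of ACVRL1 was 0.77 (SE 0.26, limma, adjusted p = 0.161) and 0.57 without replicate 1 at 5 years. The ratio of ENG to ACVRL1 was 2.57, 2.28 and 1.58 at 1.5 years and 1.12, 1.87 and 1.96 at 5 years, and these ranges overlapped. GDF2 and BMP10, the ligands of this receptor pair, were listed at 0 in every library except for GDF2 at 0.0927 FPKM in replicate 1 at 5 years.

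TEK on ENSBGRG00000000666, the row with angiogenesis terms, had FPKM of 1.45, 0.913 and 0.755 at 1.5 years and of 0.584, 1.22 and 1.14 at 5 years. The highest and the lowest value both belonged to a replicate 1, of the younger and the older animals respectively, and the groups overlapped. Mean FPKM of TEK was 1.04 ± 0.365 and 0.982 ± 0.347 (SD, n = 3 each), with a log2 fold change of -0.09 and an interval of -0.94 to 0.76 (limma, adjusted p = 0.890). This sign rested on single libraries, since the value was 0.16 without replicate 1 at 1.5 years and 0.21 without replicate 1 at 5 years. The other TEK row, ENSBGRG00000001020, is annotated with RNA-directed DNA polymerase activity, a term of transposable elements, and was below the filter. It had FPKM of 0.0624, 0.0794 and 0.606 at 1.5 years and of 0.236, 0.149 and 0.141 at 5 years, so a single young animal held its highest value.

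Among the proteins that define endothelial cells, VWF (von Willebrand factor, ENSBGRG00000002102), the clotting protein stored by endothelial cells and platelets, had FPKM of 5.22, 4.08 and 5.93 at 1.5 years and of 4.67, 4.32 and 8.0 at 5 years. Replicate 3 at 5 years was the highest and the other older animals lay inside the younger range. The log2 fold change of VWF was 0.12, with an interval of -0.51 to 0.74 (limma, adjusted p = 0.792). It was -0.16 without that replicate, -0.029 without replicate 2 at 1.5 years and 0.23 without replicate 1 at 5 years. ITGA2B, a platelet integrin, was the 1 platelet gene of 6 with a value, at 2.75 to 3.38 FPKM at 1.5 years and 2.39 to 2.90 at 5 years. The part of platelet RNA in the VWF values was not tested.

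PECAM1 (CD31, ENSBGRG00000011037), an adhesion molecule of endothelial cell contacts, platelets and leukocytes, had FPKM of 0.664, 0.771 and 0.943 at 1.5 years and of 0.938, 0.865 and 0.667 at 5 years. The ranges of the ages nearly coincided, with means of 0.792 ± 0.141 and 0.823 ± 0.140 (SD, n = 3 each). PECAM1 had a log2 fold change of 0.05 with an interval of -0.58 to 0.68 (limma, adjusted p = 0.917). The sign was not stable, since it was -0.057 without replicate 1 at 1.5 years, -0.041 without replicate 1 at 5 years, and -0.0072 after median-of-ratios scaling. Quantile normalization gave PECAM1 a log2 fold change of -0.094.

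CDH5 (VE-cadherin), which joins endothelial cells to each other, was below the filter on both of its rows. The row with blood vessel terms, ENSBGRG00000011034, had FPKM of 0.394, 0.321 and 0.361 at 1.5 years and of 0.424, 0.350 and 0.480 at 5 years, and the ages overlapped. With the filter removed its log2 fold change was 0.17 (limma, adjusted p = 0.718). The second CDH5 row, ENSBGRG00000011140, has terms for ossification and skeletal development. It had FPKM of 0.243, 0.226 and 0.129 at 1.5 years and of 0.465, 0.0828 and 0.359 at 5 years, with the widest spread at 5 years.

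For 5 of the 7 tested rows (VWF, ENG, KDR, PECAM1 and TEK) the 95% interval lay inside a 2-fold change in either direction, and for the 2 VEGFA rows it reached beyond a 2-fold increase. Summed over the 10 rows, FPKM was 13.4, 11.2 and 13.5 at 1.5 years and 14.0, 13.9 and 17.4 at 5 years. VWF made up 8.0 of the highest of these sums. The annotation of the table places VEGFA and KDR in the VEGF signalling, Ras, Rap1, MAPK and PI3K-Akt pathways, and PECAM1 and CDH5 together in cell adhesion molecules and leukocyte transendothelial migration. It gives VWF to platelet activation and coagulation, and no pathway to TEK or ENG.

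**Figure D2:**
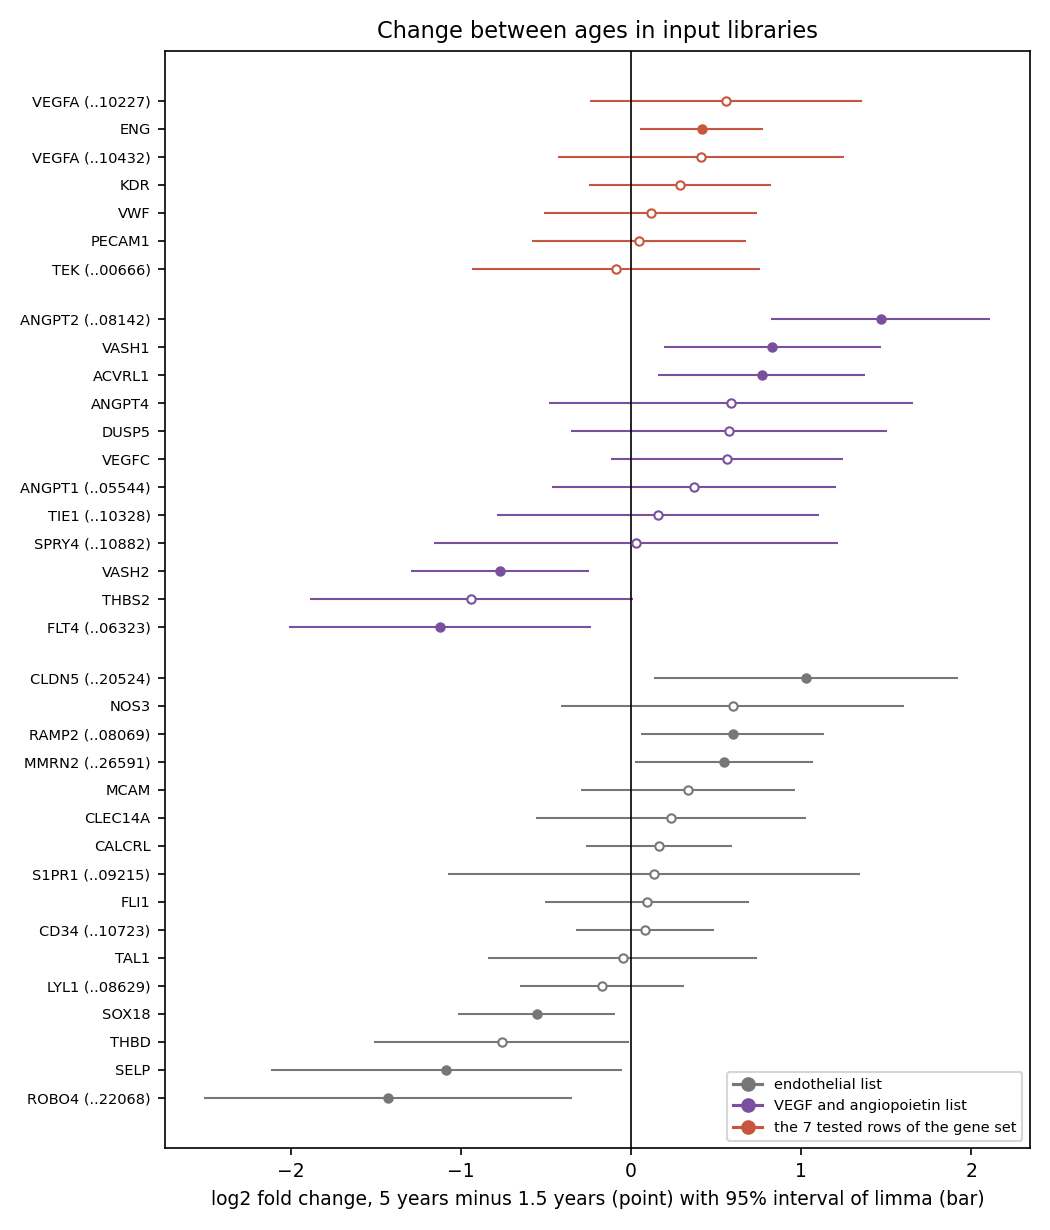
Log2 fold change (5 years minus 1.5 years, points) with the 95% interval from limma (bars) for the 7 tested rows of the gene set (red), the tested VEGF and angiopoietin list (purple) and the tested endothelial list (grey, without TIE1, which is on the purple list). Filled points mark rows whose values at the ages do not overlap. In the gene set only ENG is filled, and ANGPT2 at 1.47 is the largest increase of all rows shown.

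Further ligands, receptors and regulators of the VEGF and angiopoietin pathways were taken from a list of 21 symbols, of which 17 had a value and 12 were tested. None passed after adjustment. Before adjustment 3 were higher (ANGPT2, VASH1 and ACVRL1) and 2 lower (VASH2 and FLT4) at 5 years, beside 14.2% and 10.9% of all tested genes. These 5 were also the tested ones without overlap, beside 19.8% of all tested genes higher and 13.9% lower without overlap. The list had a median log2 fold change of 0.47, and of 0.29 without replicate 1 at 5 years. For a symbol on several identifiers the row with the highest mean FPKM was used.

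ANGPT2 (angiopoietin 2, ENSBGRG00000008142), which antagonizes TEK in many settings and loosens vessels, had FPKM of 0.302, 0.429 and 0.411 in the 1.5-year-old yaks and of 1.35, 1.04 and 1.29 in the 5-year-old yaks. Every older animal had more than 2-fold the highest value of the younger ones. ANGPT2 had a log2 fold change of 1.47 (SE 0.27, limma, adjusted p = 0.154), between 1.34 and 1.57 when any 1 library was left out. Set beside its receptor, the ratio of ANGPT2 to TEK was 0.208, 0.470 and 0.544 at 1.5 years and 2.31, 0.855 and 1.13 at 5 years. These ratios did not overlap between the ages, and TEK itself did. Another ligand of TEK, ANGPT1 (ENSBGRG00000005544), named here for its role after values were seen, had FPKM of 0.399, 0.573 and 0.428 at 1.5 years and of 0.467, 0.929 and 0.560 at 5 years, with overlap. ANGPT1 stood on 3 identifiers, and this row has no vascular terms. ANGPT4 (ENSBGRG00000013294), a further angiopoietin named in the same way, had FPKM of 0.406, 1.27 and 0.780 at 1.5 years. At 5 years ANGPT4 had 1.93, 0.829 and 0.999, with overlap. Its log2 fold change was 0.59 (limma, adjusted p = 0.421), or 0.25 without replicate 1 at 5 years.

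VASH1 and VASH2 are vasohibins, of which VASH1 is known as an inhibitor of angiogenesis made by endothelial cells and VASH2 as a promoter. VASH1 had FPKM of 0.490, 0.626 and 0.469 at 1.5 years and of 1.22, 0.864 and 0.975 at 5 years, with a log2 fold change of 0.83 (limma, adjusted p = 0.158). VASH2 had 5.85, 4.76 and 4.63 FPKM at 1.5 years and 2.42, 3.98 and 2.60 FPKM at 5 years, with a log2 fold change of -0.77 (limma, adjusted p = 0.154). The vasohibins had log2 fold changes of opposite sign, each without overlap between the ages, and neither passed after adjustment.

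VEGFC and VEGFD, the ligands that act through FLT4 (VEGFR3) on lymphatic and some blood endothelium, are named for their role after values were seen. VEGFC had FPKM of 0.965, 1.13 and 1.58 at 1.5 years and of 2.54, 1.37 and 1.74 at 5 years, with overlap and a log2 fold change of 0.56 (limma, adjusted p = 0.256), or 0.34 without replicate 1 at 5 years. VEGFD, below the filter, had FPKM of 0.0960, 0.0611 and 0.234 at 1.5 years and of 0.515, 0.694 and 0.548 at 5 years, without overlap. PGF, the ligand of FLT1, was listed at 0 in all 6 libraries.

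FLT4 shows how far a symbol can be trusted in this table. It stood on 7 identifiers, and the row with the highest level, ENSBGRG00000006323, has no annotated terms and had FPKM of 34.7, 27.4 and 31.7 at 1.5 years and of 7.86, 24.3 and 15.1 at 5 years (log2 fold change -1.12, limma, adjusted p = 0.162, and -0.70 without replicate 1 at 5 years). The row with lymphangiogenesis terms, ENSBGRG00000006109, was below the filter. That FLT4 row had FPKM of 0.123, 0.0274 and 0.103 at 1.5 years and of 0.123, 0.165 and 0.161 at 5 years, higher without overlap. In all, 3871 of 13664 symbols stood on more than 1 identifier.

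**Figure D3:**
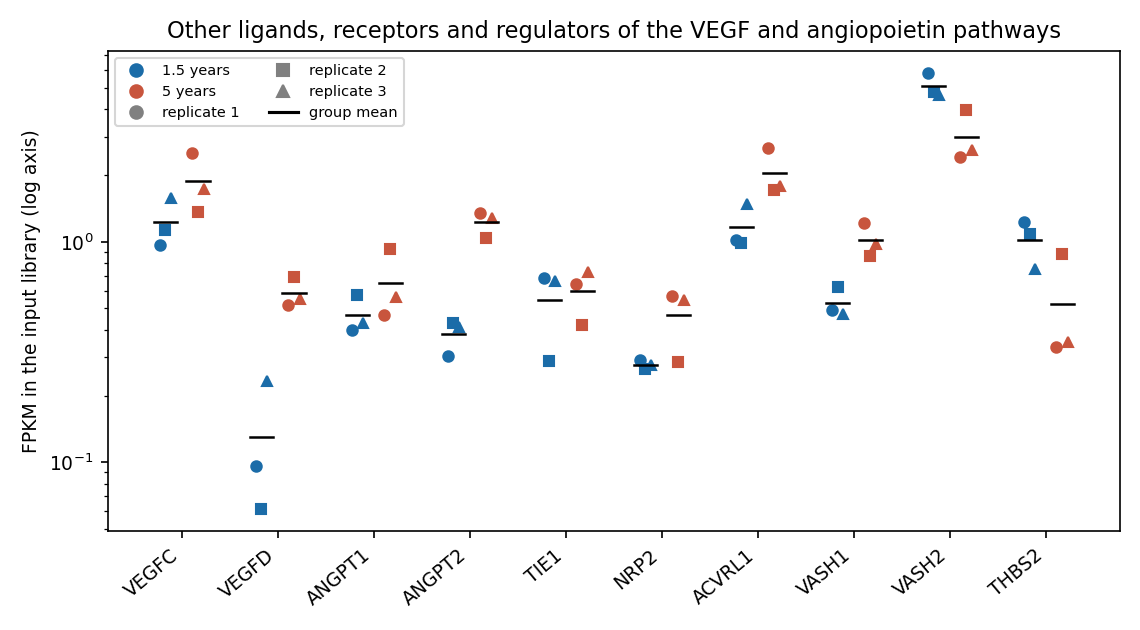
FPKM (log axis) of 10 genes of the VEGF and angiopoietin list in each input library, with 1.5-year-old yaks in blue, 5-year-old yaks in red, marker shapes for replicate numbers and black bars for group means. ANGPT2 (0.302 to 0.429 against 1.04 to 1.35), VEGFD, ACVRL1 and VASH1 have all 5-year values above all 1.5-year values, and VASH2 has them all below.

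A list of 35 other endothelial symbols had values for 27, of which 17 were tested. Again none passed after adjustment, while 3 were higher and 4 lower at 5 years before it, beside 14.2% and 10.9% of all tested genes, and the median log2 fold change was 0.14. Over all identifiers of these symbols 6 tested rows had vascular terms, of which 2 were higher and 1 lower. The ROBO4 row among the higher ones, ENSBGRG00000021903, is not the ROBO4 row counted above. MMRN2, counted as higher in the list, stood on 5 identifiers, and the row used, ENSBGRG00000026591, has no vascular terms. The MMRN2 row with vascular terms, ENSBGRG00000026568, was below the filter and lay in the other direction. Its FPKM was 0.537, 0.518 and 0.326 at 1.5 years and 0.264, 0.311 and 0.265 at 5 years, without overlap. CLDN5, a tight junction protein of endothelial cells and, in testis, also of other cells, had FPKM of 3.84, 2.83 and 6.19 at 1.5 years and of 13.9, 6.52 and 6.58 at 5 years (log2 fold change 1.03, limma, adjusted p = 0.171). Without replicate 1 at 5 years the CLDN5 value was 0.67. RAMP2, a partner of the adrenomedullin receptor, had FPKM of 6.15, 6.39 and 5.48 at 1.5 years and of 10.3, 6.45 and 11.4 at 5 years (log2 fold change 0.60, limma, adjusted p = 0.177).

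SOX18, a transcription factor of endothelial and lymphatic development, was in the other direction. It had FPKM of 6.17, 4.99 and 5.55 at 1.5 years and of 2.95, 3.90 and 4.56 at 5 years, without overlap (log2 fold change -0.55, limma, adjusted p = 0.168). ROBO4, an endothelial guidance receptor, gave opposite signs on its identifiers. Its row with the highest level, ENSBGRG00000022068, annotated with axon guidance, had a log2 fold change of -1.43 (limma, adjusted p = 0.157), or -0.91 without replicate 1 at 5 years, while ENSBGRG00000021903, annotated with angiogenesis, had 0.87. The FPKM of the latter ROBO4 row was 0.374, 0.364 and 0.636 at 1.5 years and 1.05, 0.751 and 0.899 at 5 years. LYL1, the remaining gene named by level, had a log2 fold change of -0.17 on a row annotated as a tRNA methyltransferase, and of 0.018 without replicate 1 at 5 years.

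Several endothelial genes were near 0 in every library. PLVAP, SELE and APLNR, markers of fenestrated, activated and sprouting endothelium, had FPKM of at most 0.0849, 0.0183 and 0.168. These values carry no counts, so the number of fragments behind them is unknown. The 3 lymphatic genes with a value (FLT4, PROX1 and CCL21 of 5) were all lower at 5 years before adjustment, by a median log2 fold change of -1.11, and of -0.70 without replicate 1 at 5 years. Of all tested genes 10.9% were lower before adjustment. The FLT4 counted here is the row without terms, and the row with lymphangiogenesis terms lay in the other direction. CCL21, a lymphatic chemokine, had 8.23, 7.17 and 7.56 FPKM at 1.5 years and 2.00, 7.30 and 2.87 FPKM at 5 years, with overlap and a log2 fold change of -1.11 (-0.72 without that replicate). PROX1, which sets lymphatic identity, had FPKM of 1.75, 1.88 and 2.08 at 1.5 years and of 0.518, 1.44 and 0.915 at 5 years, a log2 fold change of -1.02 (-0.68 without that replicate).

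Downstream of the VEGF receptors, 23 of 27 symbols of the signal transduction list had a value and 20 were tested. Of these 4 were higher and 1 lower at 5 years before adjustment, beside 14.2% and 10.9% of all tested genes, none after it, and the median log2 fold change was 0.10 (0.16 without replicate 1 at 5 years). SRC, a kinase activated by KDR, had FPKM of 3.18, 3.26 and 2.56 at 1.5 years and of 9.23, 4.64 and 4.55 at 5 years (log2 fold change 0.94, limma, adjusted p = 0.154, and 0.61 without replicate 1 at 5 years). CDC42, a small GTPase of cell migration, had a log2 fold change of 0.70 and MAPK3 (ERK1) of -0.46. RAC2 had 2.69, but its row carries a taste transduction pathway.

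Of the hypoxia response genes, which lie upstream of VEGFA in many tissues, 11 of 14 were tested, with 1 higher and 2 lower at 5 years before adjustment, beside 14.2% and 10.9% of all tested genes. HIF1A, the oxygen-regulated transcription factor, had FPKM of 5.05, 4.78 and 4.68 at 1.5 years and of 7.32, 5.43 and 6.76 at 5 years (log2 fold change 0.41, limma, adjusted p = 0.179). NDRG1 and ANKRD37 had log2 fold changes of -1.0 and -0.64, and the terms of the NDRG1 row are not those of NDRG1. CA9 and PDK1, the hypoxia genes at the highest levels, had -0.42 and -0.21 and overlapped between the ages. Without replicate 1 at 5 years they had -0.17 and -0.038.

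Markers of other cell types also had different levels in these libraries. All 5 tested Sertoli cell genes of 7 on that list were higher at 5 years without overlap, beside 19.8% of all tested genes, with a median log2 fold change of 0.88 (0.66 without replicate 1 at 5 years) and summed FPKM of 17.3 to 21.5 at 1.5 years and 26.5 to 45.9 at 5 years. GATA4 had a log2 fold change of 0.88, WT1 of 0.93, DHH of 0.98 and SOX9 of 0.60. All 7 tested spermatid genes of 11 had a log2 fold change below 0, while 53.5% of all tested genes were above 0. Of the 7, 4 were lower without overlap and 6 lower before adjustment, beside 13.9% and 10.9% of all tested genes. The spermatid genes had a median of -1.23 (-0.71 without replicate 1 at 5 years). Their summed FPKM was 1220 to 1275 at 1.5 years and 282 to 929 at 5 years. GAPDHS had -1.23 (-0.73 without that replicate), HMGB4 -1.08 (-0.55), ODF1 -1.40 (-0.70), TNP1 -1.07 (-0.55) and ACRV1 -1.24. None of these passed after adjustment.

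Mural cells, the pericytes and smooth muscle around vessels and tubules, were measured by 11 genes, all with a value, of which 9 were tested. Their median log2 fold change was 0.40 (0.24 without replicate 1 at 5 years), with summed FPKM of 25.4 to 31.4 and 28.6 to 50.4. The contractile genes ACTA2 (0.84), TAGLN (0.96) and MYH11 (0.56) had positive log2 fold changes without overlap, beside 19.8% of all tested genes. DES (0.97) and CNN1 (0.22, or 0.098 without replicate 1 at 5 years) overlapped between the ages. RGS5, the pericyte gene at the highest level, had -0.49 with overlap and was the only 1 of the 9 tested genes below 0. PDGFRB had 0.40 (0.18 without replicate 1 at 5 years) and KCNJ8 0.092 (-0.22 without it), both with overlap. NOTCH3 had 0.26 and was higher at 5 years without overlap. Of the macrophage genes 5 of 6 were tested, with a median of 0.00 (-0.16 without replicate 1 at 5 years) and summed FPKM of 22.6 to 25.8 and 13.4 to 27.9. CD14 had 0.55 (0.85 without replicate 1 at 5 years), CSF1R 0.58, AIF1 -1.27 and CD163 -1.16. The Leydig genes STAR (-0.92) and CYP11A1 (0.12, or 0.021 without replicate 1 at 5 years) were the 2 of 6 tested.

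Early germ cell genes (12 of 13 tested) had a median log2 fold change of 0.26 (0.15 without replicate 1 at 5 years). Their list mixes genes of germ cells before meiosis with genes of meiosis such as SYCP1 and SPO11. Their summed FPKM was 100.7 to 110.1 at 1.5 years and 117.7, 130.3 and 180.1 at 5 years, the last in replicate 1. ID4 had 1.10, UCHL1 0.62 (0.26 without that replicate) and DMRT1 0.40 (0.15). Of the red cell genes only ALAS2 and SLC4A1 of 7 had a value. They summed to 0.0819 to 0.863 FPKM at 1.5 years and 0.242 to 0.666 at 5 years, with SLC4A1 listed at 0 in every 5-year library. The part that these shifts in other cell types had in the values of ENG, VEGFA or ANGPT2 was not tested.

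The lists can also be read library by library. For the 7 tested rows of the gene set at 5 years the median difference of log2(FPKM + 0.1) from the 1.5-year mean was 0.27, 0.26 and 0.20 in replicates 1 to 3. The Sertoli list had 1.32, 0.48 and 0.84, and the spermatid list -2.16, -0.44 and -0.90. The VEGF and angiopoietin list had 0.75, -0.02 and 0.46. In the 1.5-year libraries themselves the gene set lay at 0.12, -0.12 and 0.00. No test was made of the difference between the lists.

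**Figure D4:**
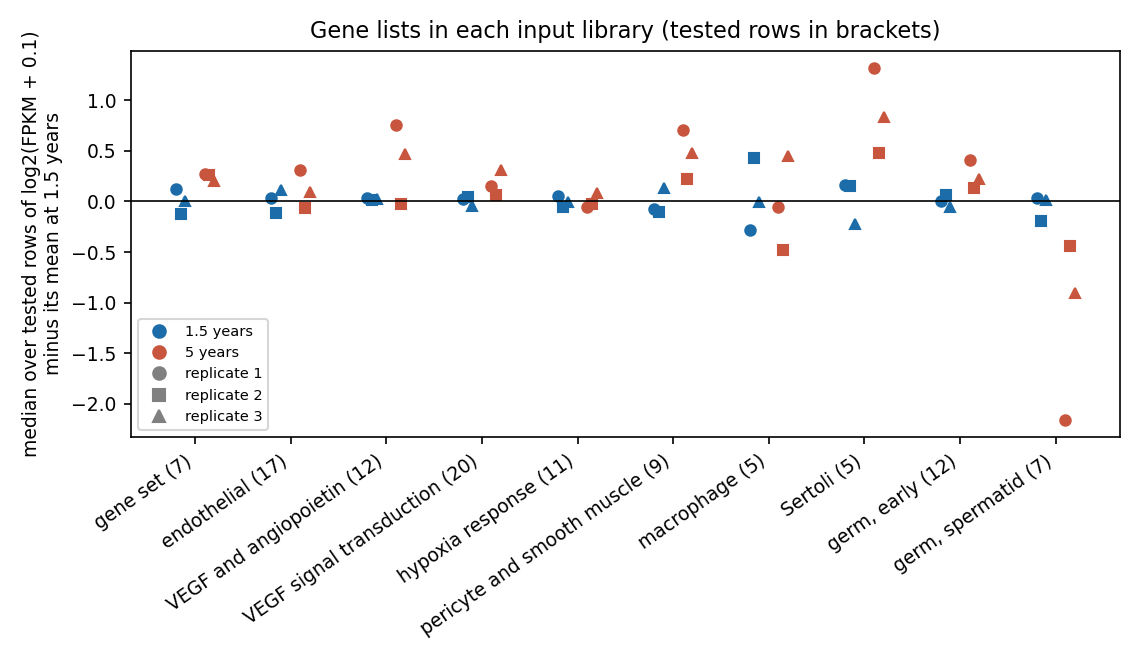
Median over the tested rows of each list (number in brackets) of log2(FPKM + 0.1) minus the mean of that row at 1.5 years, for each input library, with 1.5-year-old yaks in blue, 5-year-old yaks in red and marker shapes for replicate numbers. The gene set lies at 0.20 to 0.27 in the 5-year libraries, while replicate 1 at 5 years lies at -2.16 for the spermatid list and 1.32 for the Sertoli list.

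In the table of m6A peaks that differ between the ages, 0 of the 10 rows of the gene set had a peak. The table holds 1438 peaks on 1207 genes, and 9.29% of all genes tested for expression had at least 1. It gives neither a direction nor a fold change, and a gene outside it may still be methylated at both ages. Among related genes, on the build LU_Bosgru_v3.0, VASH2 had a peak at chr14:71036921-71046553, placed in exon 4 of 8, and its width of 9633 bp includes introns. CLEC14A, a glycoprotein of endothelial cells, had one at chr17:51836983-51837617 in exon 1 of 3, and THBD (thrombomodulin) had one at chr12:33556174-33556471 in exon 1 of 3. TAL1, a transcription factor of blood and vessel development, had one at chr3:107849481-107851019 in exon 3 of 5. PFKFB4, of the hypoxia list, had one at chr22:10813243-10828974 in exon 9 of 14. Of these genes VASH2 and THBD were lower at 5 years before adjustment, VASH2 without overlap between the ages and THBD with overlap. THBD had a log2 fold change of -0.76 (limma, adjusted p = 0.195). CLEC14A and TAL1 overlapped between the ages.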

How the data were processed

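Testis of 3 yaks of 1.5 years and 3 of 5 years was sequenced as IP and input libraries, and groups follow the ages in the sample titles. The FPKM values of the input libraries were deposited by the authors. Per the methods, reads were trimmed with Trimmomatic, cleared of rRNA with SortMeRNA and aligned with HISAT2 (2.0.4 in the submitters' processing notes) to LU_Bosgru_v3.0, keeping uniquely mapped reads. The program for FPKM is not given in the sources used here. The peak widths are in bp as deposited, and peaks were called and compared with MeTDiff and annotated with ChIPseeker by the authors. The lists of peaks of a single age, of which 8 rows each were at hand, were not used.

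FPKM summed to 133504 to 139921 at 1.5 years and 116187 to 131024 at 5 years. Fragment counts are unknown, so no counting error is given.

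Genes with a mean of at least 0.5 FPKM (12437 of 20953) were tested with limma 3.58.1 in R 4.3.3 (eBayes with a trend) on log2(FPKM + 0.1), two-sided, with Benjamini-Hochberg adjustment over all of them. A pseudocount understates the change of low genes. With 3 animals per age an exact permutation test of 1 gene cannot go below p = 0.1, so none was used. The p-values measure the spread between these animals. On simulated data (12437 genes, 200 changed), a log2 change of 2 was called for 97%, with 5.37% false among the calls, and a log2 change of 1 for 0.5%. The simulated libraries varied independently. In them 5.97% (change of 2) and 6.54% (change of 1) of genes had an unadjusted p under 0.05 (limma), against 25.1% in the data. The shares called may therefore not hold for these libraries. Tables and figures were made with Python 3.11.15, pandas 2.3.3, numpy 2.4.6 and matplotlib 3.10.9.

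Named genes are every row of the gene set, the 3 of each list with the highest mean and the 3 with the smallest p, and the 5 genes on no list closest in profile to the gene set. Some genes that the rule names are not reported here. Genes named outside this rule were chosen after their values were seen. The gene set and lists were chosen with earlier results of these data known. Alternatives were other pseudocounts, filters and scalings, limma without a trend or with robust estimation, a replicate block, and each library left out in turn. Restricting lists to symbols on 1 identifier, or taking the rows of their symbols that have vascular terms, was chosen after seeing the data. Same-numbered libraries did not deviate together (correlations of -0.022, -0.091 and 0.007, against -0.13 to 0.14 for other pairs). The ages are different animals, so the numbers do not pair them. These correlations cannot show whether a number marks a shared batch.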

Additional observations from a re-analysis of the deposited data

How the results depend on the processing

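No tested row of the gene set passed after adjustment under any alternative, so the count was 0 throughout, also with each library left out (0 to 0), against 1 at an unadjusted p under 0.05. That 1 became 0 under quantile normalization and 0 with the replicate block, and ranged from 0 to 2 with a library left out. The sign of PECAM1 turned with median-of-ratios scaling (-0.0072) and quantile normalization (-0.094), and its log2 fold change ranged from -0.057 to 0.18 with a library left out. VWF ranged from -0.16 to 0.28, TEK from -0.27 to 0.21 and LYL1 from -0.31 to 0.018. KDR (0.15 to 0.40), ENG (0.36 to 0.48) and VEGFA (0.25 to 0.77, second row 0.25 to 0.72) kept their sign. On the endothelial list 0 genes passed after adjustment and 7 before it. Leaving out a library gave 0 to 3 after adjustment and 1 to 6 before, the 3 without replicate 2 at 5 years. The 7 of 17 became 3 of 17 with the replicate block and 3 of 9, a shorter list, with symbols on 1 identifier. Rows of its symbols with vascular terms gave 3 of 6, where ROBO4 is on another row than in the 7. On the VEGF and angiopoietin list 0 passed and 5 were under 0.05 before adjustment. Leaving out a library gave 0 to 5 and 3 to 8, the 5 and the 8 without replicate 2 at 5 years. The 5 of 12 became 3 of 6 with a mean of at least 1 FPKM, 3 of 7 with symbols on 1 identifier and 3 of 6 with vascular terms only, all on shorter lists. Without replicate 2 at 5 years 2403 genes of all tested passed, against 4 with all libraries; the cause was not tested. The replicate numbers mark no shared animal, whether they mark a batch is not known, and with the block 1 gene of all tested passed. Differential peaks on the gene set were 0 under every peak setting. Depth behind a value is unknown. With 3 animals per age a 2-fold change of a single gene was mostly uncalled in the simulated data.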

Other observations

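The 5 genes on no list whose profile over the 6 input libraries was closest to the mean standardized log2(FPKM + 0.1) of the 7 tested rows were CDC37L1 (Pearson r = 0.992), DHX57 (0.991), NAA25 (0.990), RNPC3 (0.987) and CLK2 (0.986). The mean profile was -0.13, -0.67 and -0.33 at 1.5 years and 0.29, 0.39 and 0.44 at 5 years, in standard deviations. CDC37L1 had FPKM of 12.6, 11.5 and 12.5 at 1.5 years and of 14.1, 14.2 and 14.7 at 5 years, a log2 fold change of 0.23, and CLK2, a kinase of splicing factors, had 0.27. With 6 points from the same libraries such correlations are common, and 196 of 12317 genes were above 0.9, so they are given as a description.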
